A study of Mus musculus with 10 samples.

Results

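Messenger RNA decay factors of the mouse oocyte were compared between wild-type and CTCF-depleted cells, taking 9 genes of decapping (Dcp1a, Dcp1b, Dcp2, Xrn1, Ddx6), nonsense-mediated decay (Upf1, Upf2, Upf3b) and Pumilio repression (Pum2). The members were every probe set, a group of short probes read as 1 transcript measurement, whose only gene symbol in the platform annotation was one of these 9. This gave 21 probe sets of 45037, covering 8 of the 9 genes. Upf3b had no such probe set, so its signal was not analysed here. After dim probe sets were left out, 17 member probe sets over all 8 genes were tested among 27022 probe sets representing 13811 genes.

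The cells were oocytes at the germinal vesicle stage, before the meiotic divisions resume. Total RNA was profiled on 10 single-colour arrays, 5 labelled wild type and 5 labelled CTCF-depleted, which differed in the labels only by the depletion of CTCF, the zinc-finger protein that binds DNA and organises chromatin loops. The labels did not give the strain, the age of the animals, how CTCF was depleted, the cells per array or whether replicates came from separate animals. The p-values therefore measure the spread between these arrays, which may be technical. In such bulk samples a change in the RNA per cell and a change in the mix of cells cannot be told apart.

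Decapping removes the protective cap at the 5′ end of a messenger RNA and commits it to decay from that end. Dcp2 is the enzyme, Dcp1a and Dcp1b are its cofactors, Ddx6 is a helicase that promotes decapping and represses translation, and Xrn1 is the exonuclease that digests the uncapped RNA. Nonsense-mediated decay recognises messages whose translation ends too early, with Upf1 as its helicase and Upf2 as the bridge from Upf1 to Upf3 proteins on the exon junction complex. Pum2 binds Pumilio elements in the 3′ untranslated regions of messages and represses them. A fully grown oocyte transcribes little and lives on stored maternal messages, many of which are degraded during meiotic maturation, when dormant Dcp1a and Dcp2 messages are themselves translated.

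The depleted arrays carried little Ctcf signal. The brighter Ctcf probe set (1449042_at) read between 898 and 1071 on the wild-type arrays and between 16.7 and 29.3 on 4 depleted arrays, with 95.8 on depleted replicate 5, so that the depleted mean was 3.62% of the wild-type mean (log2 fold change −5.01 ± 0.31 SE, limma adjusted p = 1.59e-08 by Benjamini-Hochberg across the tested probe sets). Each array had been scaled to the same trimmed mean signal of 150, and correlations of log2 signals were 0.982 to 0.986 within groups and 0.976 to 0.981 between them. The 10 oocyte markers were above the array's control level, the highest signal among 27 Bacillus spike probe sets, on every array, and 0 of the 10 were called by limma, with 2 at an unadjusted p under 0.05. Of 13 granulosa and cumulus cell markers tested, 3 were higher in depleted oocytes (Fshr, Nr5a2 and Ptgs2) and 0 lower, with 2 of the others lower at an unadjusted p under 0.05. The summed granulosa signal overlapped between groups, at 740 to 1368 on wild-type and 808 to 1037 on depleted arrays. Ptgs2 was above the control level on 0 wild-type and 5 depleted arrays, and 8 of the 13 markers were above it on all 10. None of the 6 tested blood and immune markers was called by limma, 0 had an unadjusted p under 0.05, and Cd14 and Ptprc were above the control level on no array. Whether other cells had a part in the values below was not tested.

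Of the 8 member genes, each read from its probe set with the highest mean, Upf2 and Dcp1a were lower and Pum2 was higher in depleted oocytes, while Dcp1b, Dcp2, Xrn1, Ddx6 and Upf1 did not pass the test. A gene was called at an adjusted p under 0.05, and 16.4% of all 13811 tested genes were called, 7.26% higher and 9.12% lower. Without wild-type replicate 4 or 5 or depleted replicate 1 or 4, Upf2 was the 1 member gene called. By probe set, 4 of 17 were called against 12.6% of all tested probe sets (5.48% higher, 7.12% lower), and one of the 4 was a further probe set of Ddx6 that was higher. The groups did not overlap for 1 of the 8 genes (Upf2), against 14.2% of all genes, and for 2 of the 17 probe sets, against 11.1% of all probe sets. The median log2 fold change, depleted over wild type, was 0.02 over the 8 genes and −0.02 over all genes. The median absolute log2 fold change was 0.15 for the members and 0.16 for all genes. The log2 fold changes of the 3 called genes ran from −0.33 to 0.17 on the log2(signal + 2.47) scale.

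The calls depend on how the arrays are set against each other. The median log2 value over all tested probe sets was 0.05 higher in wild-type arrays, and centring each array on that median turned the split of called genes from 1003 higher and 1260 lower to 1374 higher and 921 lower. Among the members the split went from 1 higher and 2 lower to 2 higher (Pum2 and Dcp1b) and 1 lower (Upf2).

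**Figure D1:**
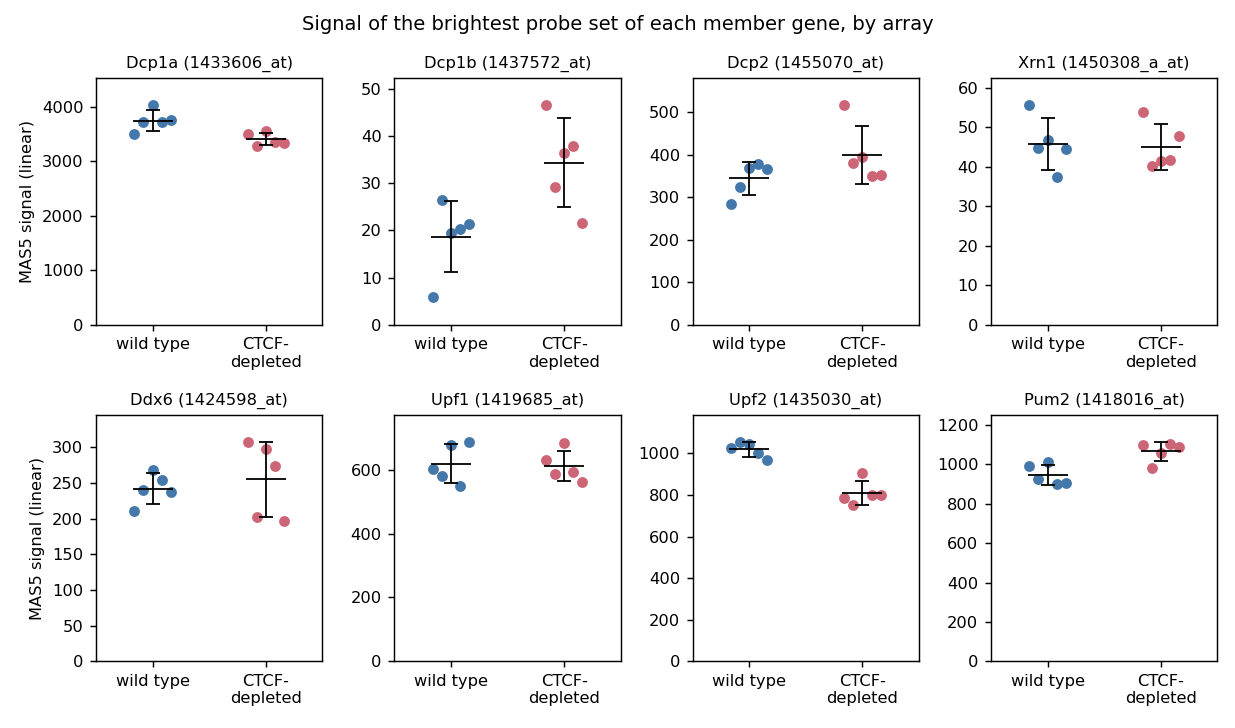
Linear MAS5 signal of each member gene's probe set with the highest mean on the 5 wild-type and 5 CTCF-depleted arrays, with points for arrays and bars for the mean ± SD; each panel has its own axis from 0. The Upf2 points of the groups are separate, at 967 to 1057 against 754 to 904, whereas all other panels overlap.

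Because CTCF binds DNA and 3 genes were called on their main probe set, the promoter windows of those genes are printed, as far as they lie before the first annotated start of the gene. They come from RefSeq, assembly GRCm38.p6, and are read 5′ to 3′ on the plus strand at chr2:5951219-5951446 (Upf2), chr14:30479315-30479485 (Dcp1a) and chr12:8673884-8674091 (Pum2). Capitals mark the letters CCCTC, after which CTCF is named, or their reverse complement.
Upf2: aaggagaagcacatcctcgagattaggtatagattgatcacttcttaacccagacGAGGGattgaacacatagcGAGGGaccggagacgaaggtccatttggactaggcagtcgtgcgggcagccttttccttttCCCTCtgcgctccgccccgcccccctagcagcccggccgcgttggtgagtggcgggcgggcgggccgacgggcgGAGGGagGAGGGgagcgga
Dcp1a: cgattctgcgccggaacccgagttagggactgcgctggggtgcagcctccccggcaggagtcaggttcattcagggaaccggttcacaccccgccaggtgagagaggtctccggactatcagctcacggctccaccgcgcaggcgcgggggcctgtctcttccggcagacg
Pum2: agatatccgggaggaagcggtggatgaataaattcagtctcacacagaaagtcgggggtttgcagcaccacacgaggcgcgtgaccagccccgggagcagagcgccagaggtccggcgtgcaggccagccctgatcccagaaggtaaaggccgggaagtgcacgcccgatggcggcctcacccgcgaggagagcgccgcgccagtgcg
The Upf2 window of 228 bases held 5 such matches, and 1.95% of 32851 promoter windows cut to the same length held at least as many, while 56.9% held at least 1. The Upf2 window was 62.7% G and C, against a median of 51.8% over those windows, so they are not windows of like base composition. The Dcp1a window of 171 bases and the Pum2 window of 208 bases held 0, while 45.6% and 53.2% of windows of those lengths held at least 1. Of the other member windows examined, those of Xrn1 and Upf3b held 1 match each and those of Dcp1b and Upf1 held 0. These matches describe letters in a window, and no binding was measured here. No window of Dcp2 or Ddx6 was examined.

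Upf2 was lower in depleted oocytes, with the smallest adjusted p of the member genes. On probe set 1435030_at the wild-type arrays read 1023, 1057, 1043, 1002 and 967, and the depleted arrays 785, 754, 904, 799 and 800. Every depleted array lay below every wild-type array, and depleted replicate 3 came nearest. Wild-type oocytes averaged 1018 ± 35.5 and depleted oocytes 808 ± 56.4 (SD, n = 5 each), which is 79.4% of wild type. The log2 fold change was −0.33 ± 0.06 SE, with a 95% interval from −0.45 to −0.22 and a limma adjusted p of 0.000597. Upf2 ranked 527 among the 13811 genes by p-value and 3174 by the size of its change. It was called with each of the 10 arrays left out in turn (adjusted p 0.000189 to 0.00264) and under each of the other 12 processing alternatives (0.000278 to 0.00989). The other Upf2 probe set (1445777_at) was too dim to test, with at most 3.38 on wild-type and 7.90 on depleted arrays, and was above the control level on none.

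Upf1, the helicase that Upf2 contacts, was read by a single probe set and did not pass the test. Probe set 1419685_at gave 601, 580, 676, 548 and 688 on wild-type arrays and 630, 587, 685, 592 and 561 on depleted arrays. The groups covered nearly the same range. Its log2 fold change was −0.02 ± 0.07 SE, with a 95% interval from −0.17 to 0.14 and an adjusted p of 0.923 in limma. The interval leaves room for a modest change of either sign, but its lower bound lies above the Upf2 estimate of −0.33. Compared within arrays, wild-type oocytes had a log2 ratio of Upf2 to Upf1 of 0.72 ± 0.16 and depleted oocytes one of 0.40 ± 0.07 (SD, n = 5 each). That difference of −0.32 ± 0.08 SE had a two-sided exact permutation p of 0.0159, and 0.0741 after adjustment over the 14 within-array ratios compared. With 5 against 5 arrays the smallest possible p is 0.00794, which adjusts to 0.111 for 1 ratio alone, and at least 3 ratios at that p were needed for an adjusted p under 0.05. Missing that threshold therefore says little about any of these ratios. Which ratios to compare was decided after seeing values, and the adjustment does not correct for that choice. The p-values of the ratios are thus descriptive.

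Of the cofactors of the decapping enzyme, Dcp1a was lower in depleted oocytes and Dcp1b did not pass the test. Dcp1a on probe set 1433606_at read 3512, 3719, 4040, 3723 and 3763 in wild-type and 3511, 3278, 3553, 3364 and 3345 in depleted oocytes. Depleted arrays were lower on the whole, and wild-type replicate 1 lay inside the depleted range. The mean fell from 3752 ± 189 to 3410 ± 117 (SD, n = 5 each), a log2 fold change of −0.14 ± 0.04 SE with an adjusted p of 0.0465 in limma. The other Dcp1a probe sets had log2 fold changes of −0.17 ± 0.07 SE (1422131_at, adjusted p = 0.126) and −0.11 ± 0.15 SE (1431933_a_at, adjusted p = 0.688). All 3 thus had negative values and 1 was called. The call held with wild-type replicate 1 (adjusted p = 0.0264) or depleted replicate 3 (0.0417) left out and was lost without any of the other arrays (0.0532 to 0.136). It also held under 6 of the 12 other alternatives, and median centring gave −0.09 with an adjusted p of 0.303.

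Dcp1b, the paralogue of Dcp1a, had the largest log2 fold change of the member probe sets tested but did not pass. Its only tested probe set, 1437572_at, read 5.96, 26.4, 19.5, 20.3 and 21.3 on wild-type arrays and 46.7, 29.3, 36.5, 37.8 and 21.5 on depleted arrays. Wild-type replicate 1 was below its array's control level, and depleted replicate 5 lay within the wild-type range. These are dim signals, with means of 18.7 ± 7.61 and 34.4 ± 9.46 (SD, n = 5 each). The log2 fold change was 0.87 ± 0.28 SE, with a 95% interval from 0.27 to 1.46 and a limma adjusted p of 0.0532. Leaving out wild-type replicate 1 reduced it to 0.56 (adjusted p = 0.0848). It passed without wild-type replicate 2 (0.0333) or depleted replicate 5 (0.0322) and under 5 of the 12 other alternatives (adjusted p over the 12 from 0.0335 to 0.134). Both remaining Dcp1b probe sets (1444030_at and 1458614_at) were too dim to test, with highest signals of 8.40 and 7.38.

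Dcp2, the decapping enzyme itself, did not pass the test on either probe set. On 1455070_at the wild-type arrays read 285, 325, 370, 377 and 367, and the depleted arrays 518, 381, 395, 351 and 353. Depleted replicate 1 stood above the rest. The groups overlapped, although wild-type replicates 1 and 2 were below every depleted array and depleted replicates 2 and 3 were above every wild-type array. The means were 345 ± 39.2 and 400 ± 68.6 (SD, n = 5 each) and the log2 fold change 0.20 ± 0.10 SE (adjusted p = 0.234 in limma). Without depleted replicate 1 it was 0.11 (adjusted p = 0.493). On 1430150_at depleted replicates 3 and 4 were the lowest, at 71.7 and 68.8, the other 3 depleted arrays read 112 to 124, and the wild-type arrays lay between 92.5 and 107. Its log2 fold change was −0.06 ± 0.15 SE (adjusted p = 0.853), and it was 0.04 without depleted replicate 3 and 0.06 without depleted replicate 4. The wider spread of the depleted arrays, an SD of 26.6 against 6.05, was not itself tested.

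Within arrays, the cofactors and the enzyme could be set against each other. The log2 ratio of Dcp1a to Dcp2 was 3.44 ± 0.13 in wild-type and 3.10 ± 0.20 in depleted oocytes (SD, n = 5 each), and the arrays of the groups did not overlap. The difference of −0.34 ± 0.11 SE had an exact permutation p of 0.00794, the smallest possible here, and 0.0741 after adjustment. The ratio of Dcp1b to Dcp2 differed by 0.66 ± 0.29 SE (exact permutation p = 0.0317, adjusted 0.111). Both ratios took Dcp2 from 1455070_at, on which depleted replicate 1 stood above the rest. That array had the lowest Dcp1a to Dcp2 ratio, at 2.76. The other depleted arrays gave 3.10 to 3.25, still below the lowest wild-type value of 3.29. Neither cofactor was set against the other Dcp2 probe set, 1430150_at, which changed by −0.06 where 1455070_at changed by 0.20. A ratio between probe sets can show only unequal change, and these differences hold for the probe sets used.

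**Figure D2:**
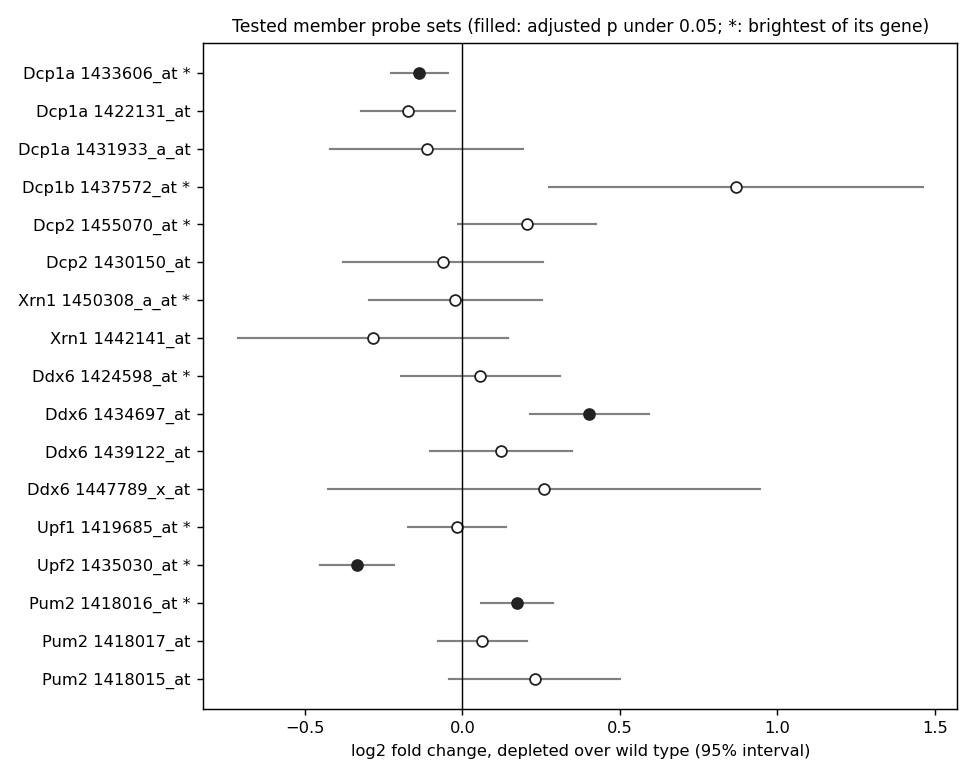
Log2 fold change, depleted over wild type, with its 95% interval for the 17 tested member probe sets; filled points are those with an adjusted p under 0.05 and a star marks the probe set that stands for its gene. Upf2 at −0.33 and Dcp1a at −0.14 lie left of 0, Pum2 at 0.17 and the Ddx6 probe set 1434697_at at 0.40 lie right of it, and the Dcp1b interval from 0.27 to 1.46 is the widest among the starred points.

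Ddx6 gave different answers on its probe sets. Probe set 1434697_at read 170, 171, 164, 184 and 174 on wild-type arrays and 268, 234, 224, 244 and 186 on depleted arrays. All depleted arrays were above all wild-type arrays, though depleted replicate 5 was above the highest of them only by 186 against 184. Means were 173 ± 7.46 against 231 ± 30.1 (SD, n = 5 each). The log2 fold change was 0.40 ± 0.09 SE, at a limma adjusted p of 0.00598. It stayed called with each array left out (adjusted p 0.000806 to 0.0198) and under the 11 other alternatives that test probe sets (0.00148 to 0.0243).

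The Ddx6 probe set with the highest mean, 1424598_at, did not pass the test. It read 211, 240, 268, 254 and 238 on wild-type arrays and 307, 202, 297, 274 and 197 on depleted arrays. Depleted replicates 2 and 5 were below every wild-type array, while depleted replicates 1, 3 and 4 were above all of them. Its log2 fold change was 0.06 ± 0.12 SE (95% interval −0.20 to 0.31, adjusted p = 0.825 in limma). Probe set 1439122_at gave 0.12 ± 0.11 SE (adjusted p = 0.524). The faint 1447789_x_at was above the control level on 1 wild-type and 2 depleted arrays and gave 0.26 ± 0.32 SE (adjusted p = 0.683).

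Relative to 1424598_at on the same array, 1434697_at was higher in depleted oocytes by 0.35 ± 0.12 SE on the log2 scale. The exact permutation p was 0.0159, and 0.0741 after adjustment over the 14 ratios, which could hardly fall under 0.05 in this design. The other 10 ratios, between probe sets of a gene or against Dcp2, had adjusted p of 0.356 to 0.929. Which part of the Ddx6 transcript each probe set reads was not examined here. As a gene, Ddx6 is counted among those that did not pass.

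**Figure D3:**
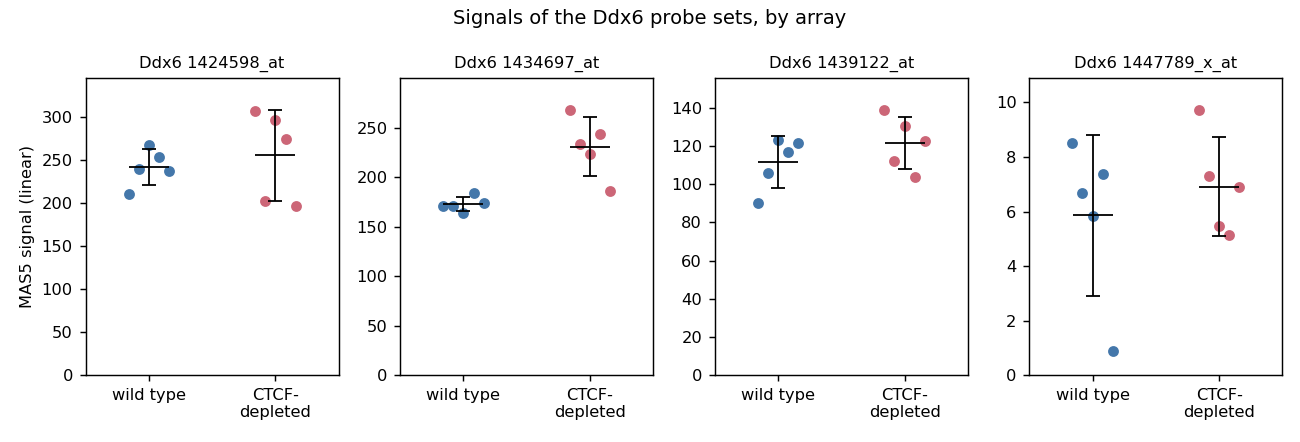
Linear MAS5 signal of the 4 Ddx6 probe sets on the 5 wild-type and 5 CTCF-depleted arrays, with points for arrays and bars for the mean ± SD; each panel has its own axis from 0. Only 1434697_at shows separate groups, at 164 to 184 against 186 to 268.

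Xrn1, the exonuclease that follows decapping, did not pass the test on either probe set. Probe set 1450308_a_at read 55.6, 44.8, 46.8, 37.4 and 44.4 on wild-type arrays and 53.9, 40.1, 41.5, 41.6 and 47.8 on depleted arrays. The groups covered the same range, with means of 45.8 ± 6.54 and 45.0 ± 5.81 (SD, n = 5 each). The log2 fold change was −0.02 ± 0.13 SE, with a 95% interval from −0.30 to 0.25 and a limma adjusted p of 0.941. The dimmer 1442141_at gave −0.28 ± 0.20 SE (adjusted p = 0.425), from 27.2 ± 6.61 to 21.9 ± 5.90 (SD, n = 5 each).

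Pum2 was higher in depleted oocytes by a small margin. Its probe set 1418016_at read 993, 924, 1012, 898 and 905 on wild-type arrays and 1099, 982, 1060, 1103 and 1087 on depleted arrays. Depleted replicate 2 lay within the wild-type range, and the other 4 depleted arrays were above all wild-type arrays. The mean was 946 ± 52.2 in wild-type and 1066 ± 50.2 in depleted oocytes (SD, n = 5 each), a log2 fold change of 0.17 ± 0.05 SE with an adjusted p of 0.0457 in limma. The other tested Pum2 probe sets gave 0.06 ± 0.07 SE (1418017_at, adjusted p = 0.623) and 0.23 ± 0.13 SE (1418015_at, adjusted p = 0.287). All 3 had positive values and 1 was called.

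The Pum2 call was close to the threshold. It held without wild-type replicate 1 (adjusted p = 0.0443), wild-type replicate 3 (0.0384) or depleted replicate 2 (0.0166) and was lost without any of the other arrays (0.0714 to 0.110). It held under 7 of the 12 other alternatives (adjusted p over the 12 from 0.0129 to 0.127). The remaining Pum2 probe set, 1441448_at, was too dim to test, with no array above 4.87 and none above the control level. Of the related genes on the list of Pumilio, Nanos and partner proteins, 2 others were tested, and Nanos1 (0.04 ± 0.14 SE, adjusted p = 0.905) and Trim71 (0.01 ± 0.12 SE, adjusted p = 0.984) did not pass in limma. The other tested probe set had a log2 fold change of 0.06 for Nanos1 and 0.48 for Trim71.

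The wider decapping list, which adds the Lsm ring, enhancers of decapping and zinc-finger proteins that recruit decay enzymes, had 1 of 25 tested genes higher and 1 lower, against 7.26% and 9.12% of all tested genes. The gene that was lower was Dcp1a, so without the 5 member genes 1 of 20 was higher and 0 lower in limma, with 3 higher and 3 lower at an unadjusted p under 0.05 (13.6% and 16.8% of all tested genes). The gene that was higher was Patl2, an oocyte-enriched relative of the decapping activator Patl1 that represses translation. Patl2 read 839, 796, 862, 818 and 838 on wild-type arrays and 1156, 883, 1029, 1057 and 1044 on depleted arrays. The groups did not overlap. Its log2 fold change of 0.31 ± 0.06 SE had an adjusted p of 0.00327 and was called with each array left out and under the 11 other alternatives that test probe sets (adjusted p over all of these from 0.000181 to 0.0294). The median log2 fold change over the 25 tested genes was 0.03, against −0.02 for all genes. The list's count was 1 without wild-type replicate 4 or 5 or depleted replicate 1, 2 or 4, and it was 4 without wild-type replicate 2 (3 higher, 1 lower) or depleted replicate 5 (4 higher, 0 lower).

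Of the 17 genes tested on the nonsense-mediated decay list, 2 were higher and 2 lower, against 7.26% and 9.12% of all tested genes. Besides Upf2, the lower gene was Ncbp2, the small subunit of the nuclear cap-binding complex, which went from 758 ± 49.8 to 634 ± 67.4 (SD, n = 5 each; log2 fold change −0.26 ± 0.07 SE, adjusted p = 0.0296 in limma). Its arrays overlapped at 1 value, since depleted replicate 4 read 693 and wild-type replicate 3 read 691, and the call was lost without wild-type replicate 1 (adjusted p = 0.0624), 2 (0.0591) or 5 (0.0834). Gspt2, a release factor that ends translation, was higher at 0.21 ± 0.05 SE (adjusted p = 0.0118), from 2074 ± 95.3 to 2400 ± 158, while its other tested probe set had a log2 fold change of −0.13. Its call was lost with no intensity trend (adjusted p = 0.0795) and with the 3-prime to 5-prime covariate (0.0554). Rbm8a, a core protein of the exon junction complex, was higher at 0.15 ± 0.05 SE (adjusted p = 0.0498), from 1440 ± 57.3 to 1598 ± 72.5, and its call with 1 array left out held only without depleted replicate 1 (0.0480) or 3 (0.0443). Under the 11 other alternatives that test probe sets, Ncbp2 and Rbm8a were each called in 7. The kinase Smg1 (−0.14, adjusted p = 0.494) and the nuclease Smg6 (0.05, adjusted p = 0.819), which act on Upf1 and on the target RNA, did not pass. Their other tested probe sets ran from −0.26 to −0.09 for Smg1 and from 0.01 to 0.37 for Smg6. The median over the 17 genes was 0.05, and the count was 2, 1 in each direction, without wild-type replicate 1, 2 or 5.

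The exosome, which degrades RNA from the 3′ end, was set beside the decapping route from the 5′ end. Of the 15 tested genes on the exosome list 3 were higher and 0 lower in limma, against 7.26% and 9.12% of all tested genes. The list also holds Dis3l2, Skiv2l, Ttc37 and Wdr61, which are not exosome subunits. Their values enter the counts and the median below. At an unadjusted p under 0.05 there were 7 higher and 0 lower, against 13.6% and 16.8% of all tested genes. The median log2 fold change was 0.17, against −0.02 for all genes. Exosc9, a ring subunit, read 342, 352, 358, 330 and 357 on wild-type arrays and 449, 417, 410, 411 and 413 on depleted arrays. The groups were separate, and the log2 fold change was 0.27 ± 0.06 SE (adjusted p = 0.00498 in limma). Exosc4, also of the ring, was higher at 0.22 ± 0.07 SE (adjusted p = 0.0428), and with 1 array left out its call held only without depleted replicate 1 (0.0480), 3 (0.0402) or 5 (0.0322). Dis3l, a cytoplasmic nuclease of the complex, was higher at 0.21 ± 0.06 SE (adjusted p = 0.0405), and with 1 array left out its call held only without wild-type replicate 2 (0.0272) or depleted replicate 1 (0.0361) or 3 (0.0407). Under the 11 other alternatives that test probe sets, Exosc9 was called in 11 and Exosc4 and Dis3l in 7 each. The exosome count was 1, with Exosc9 alone, when wild-type replicate 1, 3, 4 or 5 or depleted replicate 2 or 4 was left out. Dis3, a nuclease subunit, had a negative value and did not pass (−0.17 ± 0.09 SE, adjusted p = 0.259).

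**Figure D4:**
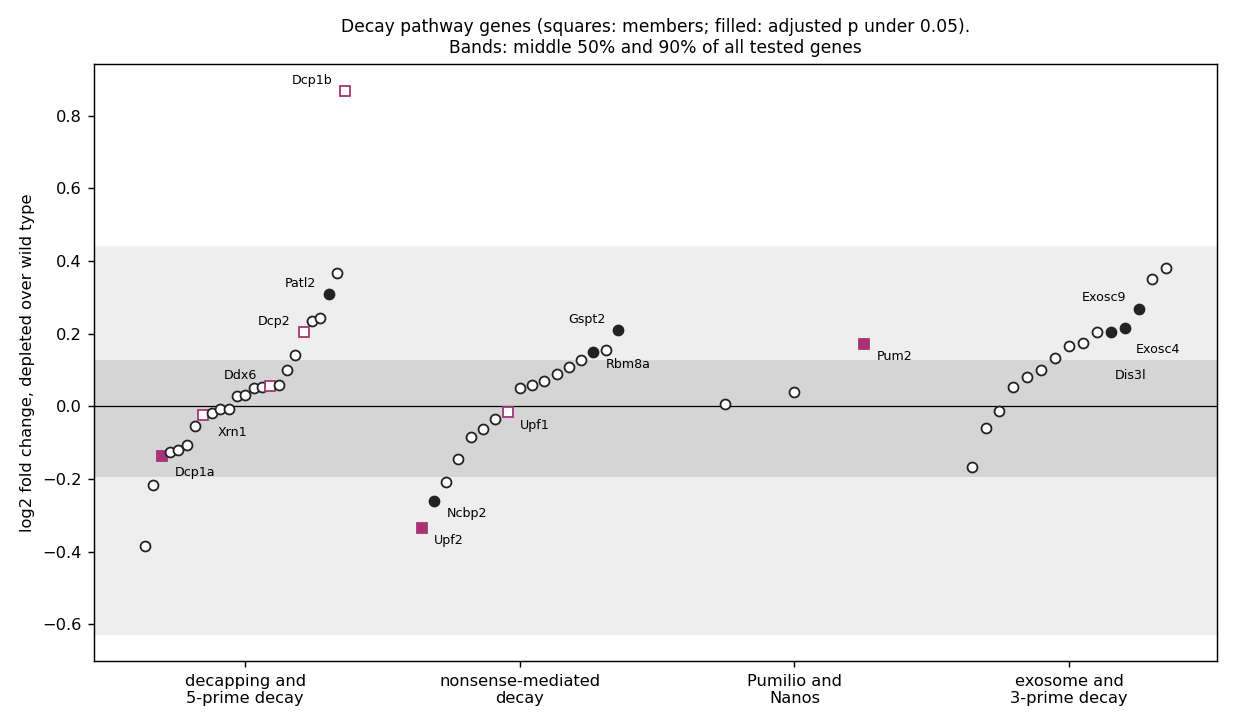
Log2 fold change, depleted over wild type, of every tested gene on the 4 decay lists, with squares for members and filled symbols for an adjusted p under 0.05. The darker band runs from −0.19 to 0.12, the 25th to the 75th percentile of all tested genes. The lighter band runs from −0.63 to 0.44, the 5th to the 95th percentile. On the exosome list 12 of the 15 genes lie above 0, and Dcp1b lies outside the lighter band.

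Likeness to the called members was measured as the root mean square difference of log2 values over the 10 arrays, after centring each gene on its own mean. Upf2 was nearest to Sptan1, which encodes a spectrin chain, at 0.058, then to Pramel34 and Per1, both at 0.067, against a median of 0.27 over all genes. Sptan1 was lower in depleted oocytes (log2 fold change −0.41, adjusted p = 4.90e-05 in limma), as were Pramel34 (−0.30, 0.0226) and Per1 (−0.29, 0.0305). Pramel34 lost its call without depleted replicate 5 or wild-type replicate 1 or 2, with adjusted p up to 0.0593. Per1 kept it only without wild-type replicate 4 or 5 or depleted replicate 3 or 4, with adjusted p up to 0.0885 otherwise.

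Pum2 was nearest to Smad4, the shared mediator of TGF-beta family signals, at 0.034, then to Rheb at 0.042 and Zcchc3 at 0.045, against a median of 0.23. Of these, Zcchc3 was called (0.19, adjusted p = 0.0128 in limma), while Smad4 (0.14, 0.0529) and Rheb (0.14, 0.0518) were not. Dcp1a was nearest to Copa at 0.035, Ccdc14 at 0.038 and Spc25 at 0.040, against a median of 0.22, and none of the 3 was called (log2 fold changes −0.11, −0.10 and −0.11, adjusted p 0.205, 0.214 and 0.156). These genes were chosen for likeness over the same arrays, so their direction adds nothing to that of the member.

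**Figure D5:**
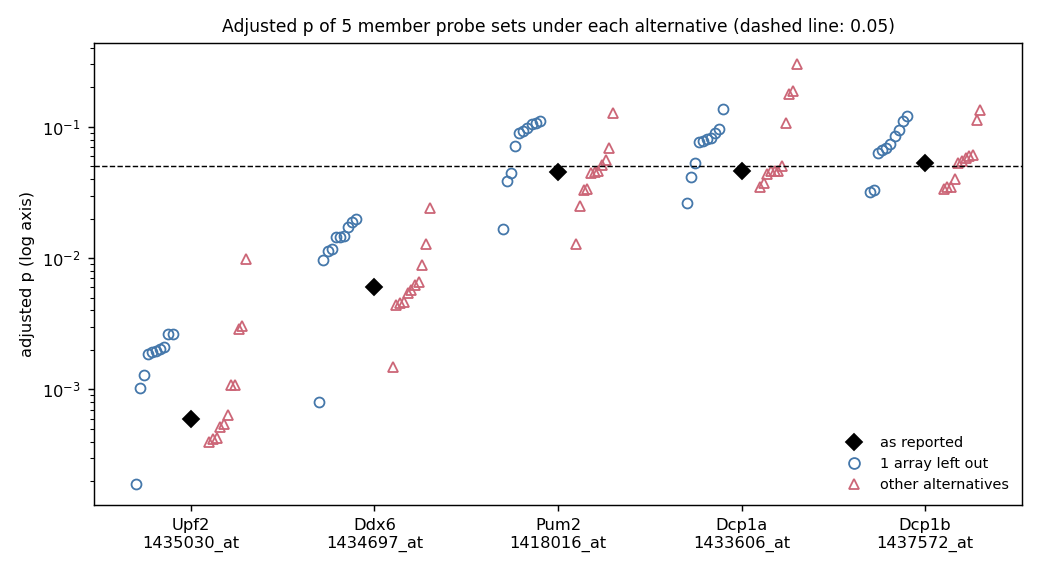
Adjusted p on a log axis of 5 member probe sets as reported, with each of the 10 arrays left out and under the other processing alternatives; the dashed line is 0.05. Upf2 and the Ddx6 probe set 1434697_at stay below the line throughout, at most 0.00989 and 0.0243, while Pum2, Dcp1a and Dcp1b have points on both sides of it.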

How the data were processed

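RNA of 5 wild-type and 5 CTCF-depleted oocyte samples was purified with a Picopure kit and labelled with biotin, per the labels' protocols. The values the authors deposited are linear intensities. They come from MAS5 according to the submitters' processing notes, with its version not given in the sources used here. This method subtracts mismatch signal, so dim values are noisy. Leaving out 2% at each end, every array averaged 150.001, so scaling assumes equal mean signal in the groups.

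Here 64 control probe sets were left out, and the log2 transform took an offset of 2.47 (the 25th percentile of the table), so that changes of dim genes are understated. Probe sets under the 40th percentile of mean log2 value, a signal of about 5.13, were not tested. Depleted and wild-type arrays were compared with limma 3.58.1 in R 4.3.3 (lmFit, eBayes with intensity trend) and Benjamini-Hochberg adjustment, after a check on simulated data. A gene was read from its probe set with the highest mean; 932 probe sets with several symbols were not used for genes. The number of arrays limits the precision. Exact permutation tests were two-sided.

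The members and lists were chosen with earlier results of these data known; which ratios to compare was decided after seeing values. Named genes were all member and Ctcf probe sets, called genes of the 4 decay lists, and the 3 genes nearest each called member; Smg1, Smg6, Nanos1, Trim71 and Dis3 were named besides. Replicate numbers were not used to pair arrays, except in the replicate block. Alternatives changed the offset, filter, centring, trend, robust fit, array weights, replicate block, a covariate of 3-prime to 5-prime control signal, the probe set rule and the threshold, or left out 1 array.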

Additional observations from a re-analysis of the deposited data

Results flagged for a closer look

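Of 38 groups of 5 arrays examined, 3 had 1 array set apart from the other 4 by more than 0.71 of the group's range. Chance alone gives about 1 in 20 groups if the groups are independent and their values normal. These groups share arrays and genes, so the count cannot be set against that rate. Depleted replicate 5 read 95.85 on Ctcf probe set 1449042_at, where the other depleted arrays read 16.7 to 29.32, and 61.13 on 1418330_at, where they read 7.074 to 14.16. Depleted replicate 1 read 517.8 on Dcp2 probe set 1455070_at, where the others read 351.2 to 394.9.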

How the results depend on the processing

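Upf2 kept its direction and its call under every alternative run. Ddx6 probe set 1434697_at and the Ctcf probe sets did so under every alternative that tests probe sets. Ctcf ran from −5.42 to −4.83 (1449042_at) and from −5.89 to −5.21 (1418330_at) with 1 array left out. With probe sets averaged per gene, Ddx6 was at 0.21 and was not called (adjusted p = 0.192 in limma). With 1 array left out, 1 to 3 member genes and 2 to 4 member probe sets were called, 1 to 4 genes of the decapping list, 2 to 4 of the nonsense-mediated decay list, 0 to 1 of the Pumilio list and 1 to 3 of the exosome list. With no filter the counts were 1, 2, 1, 2, 0 and 1 in that order, and with no intensity trend 1 member gene, 2 member probe sets, 1 decapping gene, 1 nonsense-mediated decay gene and 0 Pumilio genes. The decapping count was 4 with the 60th percentile filter, median centring or probe sets averaged per gene, and 1 with the 3-prime to 5-prime covariate, which also left 1 nonsense-mediated decay and 1 exosome gene. Median centring gave 5 genes of the exosome list, and averaged probe sets gave 1 nonsense-mediated decay gene. The Pumilio count was 0 under that averaging and under quantile normalization. At an adjusted p under 0.01 there were 1 member, 1 decapping, 1 nonsense-mediated decay, 0 Pumilio and 1 exosome gene. At 0.1 there were 7 genes of the decapping list and 5 of the exosome list.

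Values near 0 that were not called turned sign. Upf1 was 0.0349 with median centring, 0.0795 with the covariate and −0.0585 to 0.0231 with 1 array left out. Xrn1 probe set 1450308_a_at was 0.0284 with median centring, 0.0329 with quantile normalization, 0.0298 with the covariate and −0.0892 to 0.0466 with 1 array left out. With 1 array left out, Ddx6 ran from −0.016 to 0.1431 on 1424598_at and from −0.0426 to 0.3857 on 1447789_x_at, and Dcp2 from −0.1524 to 0.0556 on 1430150_at. The cause of these changes was not tested.

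To look for pairing, the group mean of each probe set was subtracted from its log2 values. The remaining deviations of same-numbered wild-type and depleted arrays correlated at 0.002 to 0.051. By these deviations, 2 of 5 wild-type arrays correlated best with the depleted array of their own number. No shared deviation by number was thus seen. The labels do not say whether same-numbered samples were handled together. Under the replicate block 2 member genes (Dcp1a and Upf2), 3 member probe sets, 2 decapping, 4 nonsense-mediated decay, 0 Pumilio (1 at an unadjusted p under 0.05 in limma) and 3 exosome genes were called. Dim probe sets, near the control level of 4.75 to 10.9, limit Dcp1b and the 4 probe sets that were too dim to test.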
